A study of Mus musculus with 11 samples.

Results

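The sequencing depth of 4 olfactory receptor gene clusters was described in mouse embryonic stem cells (mESC). The clusters were taken as stretches of the mm10 genome, and a bin belonged to a cluster where its midpoint lay in the stretch. This gave 326 of the 52958 bins of about 50 kb into which the genome was divided, or of the 47924 autosomal bins. The chromosome 2 cluster held 110 bins (chr2:85015893-90514884), the chromosome 7 cluster 136 bins (chr7:102022456-108879252), the proximal chromosome 9 cluster 28 bins (chr9:18615208-20015450) and the distal chromosome 9 cluster 52 bins (chr9:37618511-40218962). Each cluster was set against the 200 bins of its flanks, 5 Mb on each side. Depth is given as relative depth, the depth of a bin over the median autosomal bin depth of the same library, so that 1 is the level of most autosomal bins.

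Olfactory receptors are odorant-binding G protein-coupled receptors, and their genes form the largest gene family of the mouse genome. The coding sequence of most of them lies in a single exon, and neighbours on a chromosome often arose by tandem duplication, so that clusters hold many similar copies and pseudogenes. Olfactory sensory neurons use the genes, and stem cells keep them silent. Copy number of olfactory receptor genes is known to differ between mouse strains. In genomic DNA, depth reports the number of copies of a sequence and not its expression, and reads from nearly identical copies can be placed on any of them.

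The 11 libraries, in 7 groups, hold low-coverage genome sequence of DNA from bulk cells. Ctrl cells carry Cre/ERT2, a Cre recombinase activated by tamoxifen, and the reporter Rosa26-LSL-H2b-Egfp. Tet iTKO cells carry the same alleles and Tet1,2,3 fl/fl, so that tamoxifen deletes the genes of the TET enzymes, which oxidise 5-methylcytosine. Each genotype had 1 library before treatment, 1 acute library (tamoxifen at 1 µM for 2.5 days, then 4 days of culture) and 3 long-term libraries from tamoxifen-treated monoclonal populations kept for 30 days. The single Dnmt TKO library came from cells with a constitutive loss of the DNA methyltransferases (Dnmt1,3a,3b TKO), a line described earlier and not derived with the Ctrl cells, so that genotype and line cannot be told apart. All cells grew under 2i conditions on fibroblast feeders and were sorted as living CD326+ Thy1.2- cells, with GFP as a further gate for Ctrl and Tet iTKO. The reporter is expressed after Cre excision, so that this gate cannot be assumed for the pre-treatment libraries. A long-term library is 1 clone, and nothing states that early libraries came from the same populations as the clones.

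Libraries held 555 to 812 megabases in the bins, which corresponded to 215 to 315 reads of 50 bases in a bin of median depth. The bins of the clusters had a median of 220 to 322 reads per library. Y chromosome bins had a median relative depth of 0.0269 to 0.0381 in the 4 early libraries and of 0.457 to 0.558 in the 7 long-term libraries, so that early and long-term cells differed in more than time. X chromosome bins lay between 0.56 and 0.592 in all 11 libraries.

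Sequence pairs from the chromosome 7 cluster are shown because they lie in or at the edge of bins that were low in Dnmt TKO, and because they show how similar copies in the cluster can be. All come from the RefSeq GRCm38 assembly, 5′ to 3′ on the minus strand. Olfr715 and Olfr715b are neighbouring olfactory receptor genes whose coding sequences, of 945 bases each, were 99.0% identical, with 9 differing bases. The 300 coding bases with the most differences are chr7:107128988-107129287 for Olfr715 and chr7:107106456-107106755 for Olfr715b, with the 4 differing bases in capitals.
Olfr715: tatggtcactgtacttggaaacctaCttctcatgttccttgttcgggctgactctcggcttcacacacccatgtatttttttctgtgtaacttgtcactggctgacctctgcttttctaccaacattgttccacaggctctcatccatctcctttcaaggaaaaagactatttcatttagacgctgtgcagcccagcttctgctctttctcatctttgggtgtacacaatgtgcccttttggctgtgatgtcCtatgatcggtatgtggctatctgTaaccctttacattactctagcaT
Olfr715b: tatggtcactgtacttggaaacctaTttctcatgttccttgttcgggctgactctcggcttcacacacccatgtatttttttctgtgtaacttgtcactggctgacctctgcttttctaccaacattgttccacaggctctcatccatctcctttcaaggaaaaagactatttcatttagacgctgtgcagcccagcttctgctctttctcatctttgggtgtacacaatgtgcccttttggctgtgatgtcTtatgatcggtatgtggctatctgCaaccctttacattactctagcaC
Gvin1 and Gm4070 encode very large interferon-inducible GTPases, and their coding sequences of 7281 bases differed at 3 positions. The first 150 coding bases did not differ, so that no read inside them can be assigned to either copy. They are chr7:106165111-106165260 in Gvin1 and chr7:105903694-105903843 in Gm4070.
Gvin1 and Gm4070: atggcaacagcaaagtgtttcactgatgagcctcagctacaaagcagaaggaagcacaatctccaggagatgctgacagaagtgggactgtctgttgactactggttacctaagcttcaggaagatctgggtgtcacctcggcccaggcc
Trim5 and Trim12a belong to the Trim gene family, some of whose members encode antiviral proteins. The 250 bases before their annotated starts are chr7:104288107-104288356 and chr7:104315496-104315745, and the longest run shared by both, of 191 bases, is in capitals.
Trim5: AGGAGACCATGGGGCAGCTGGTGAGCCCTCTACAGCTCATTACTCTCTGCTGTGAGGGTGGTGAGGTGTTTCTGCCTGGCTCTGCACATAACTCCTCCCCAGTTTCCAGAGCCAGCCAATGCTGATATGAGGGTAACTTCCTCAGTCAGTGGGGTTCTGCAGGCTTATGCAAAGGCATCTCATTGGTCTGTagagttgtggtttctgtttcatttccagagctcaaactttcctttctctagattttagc
Trim12a: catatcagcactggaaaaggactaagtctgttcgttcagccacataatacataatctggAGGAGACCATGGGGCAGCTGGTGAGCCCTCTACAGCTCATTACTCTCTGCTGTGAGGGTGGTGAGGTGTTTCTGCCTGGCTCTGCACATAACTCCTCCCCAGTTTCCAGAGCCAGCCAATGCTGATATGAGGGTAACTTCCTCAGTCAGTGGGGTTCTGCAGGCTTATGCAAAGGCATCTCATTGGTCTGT
The shared run lies at different distances from the annotated starts of the pair.

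The clusters were dense in olfactory receptor genes. By the GENCODE M21 annotation, the bins of the chromosome 2 cluster held coding sequence of 227 olfactory receptor genes and 60 olfactory receptor pseudogenes, against 13 other protein-coding genes. The chromosome 7 cluster held 195 and 39, with 68 other protein-coding genes, among them the beta-globin genes, 13 Trim genes and 5 Usp17l genes. The proximal chromosome 9 cluster held 27 genes and 11 pseudogenes, and the distal one 95 and 28. An olfactory receptor gene or pseudogene lay in 97 of 110 bins on chromosome 2, in 82 of 136 on chromosome 7, in 23 of 28 in the proximal and in 51 of 52 in the distal cluster of chromosome 9, with up to 6 in a bin.

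The clusters differed from their flanks in base composition and repetition. Median GC content was 37.0% on chromosome 2 (flanks 40.9%), 39.6% on chromosome 7 (44.9%), 38.1% in the proximal (41.9%) and 37.7% in the distal cluster of chromosome 9 (44.2%). Bases masked as repeats in the assembly, of any class, made up 43.2% to 55.3% of the median bin of the clusters. In the flanks they made up 25.3% to 34.0%. Uniqueness, the share of 50-base words of a bin that occur once in the genome, on either strand, had a median of 81.5% to 87.8% in the clusters and of 94% to 97% in the flanks. A second olfactory receptor gene at least 95% identical in coding sequence lay in the same cluster for 23.3% of the genes on chromosome 2, 19.3% on chromosome 7, 14.8% in the proximal and 10.5% in the distal cluster of chromosome 9. The most similar pair was Olfr596 and Olfr603 on chromosome 7, at 99.5% over 936 bases.

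All 4 clusters lay close to the autosomal median in every library. The chromosome 2 cluster had a median relative depth between 0.979 and 1.031 over the 11 libraries, and its flanks lay between 1.002 and 1.031. On chromosome 7 the cluster lay between 1.003 and 1.031 and the flanks between 1.023 and 1.067. The proximal chromosome 9 cluster lay between 1.015 and 1.068 in the 10 other libraries and at 1.107 in Dnmt TKO, which was the highest value. The distal chromosome 9 cluster lay between 1.035 and 1.077, above flanks of 0.952 to 0.989 in all 11 libraries. After correction for GC content the distal cluster still exceeded its flanks by 0.08 to 0.17 on the log2 scale, the proximal one by 0.03 to 0.13, and the chromosome 7 cluster lay at or under its flanks in all 11 libraries (log2 difference -0.053 to -0.00063). For scale, loss of 1 of 2 copies in all cells is -1 and gain of 1 copy 0.58 on the log2 scale.

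**Figure D1:**
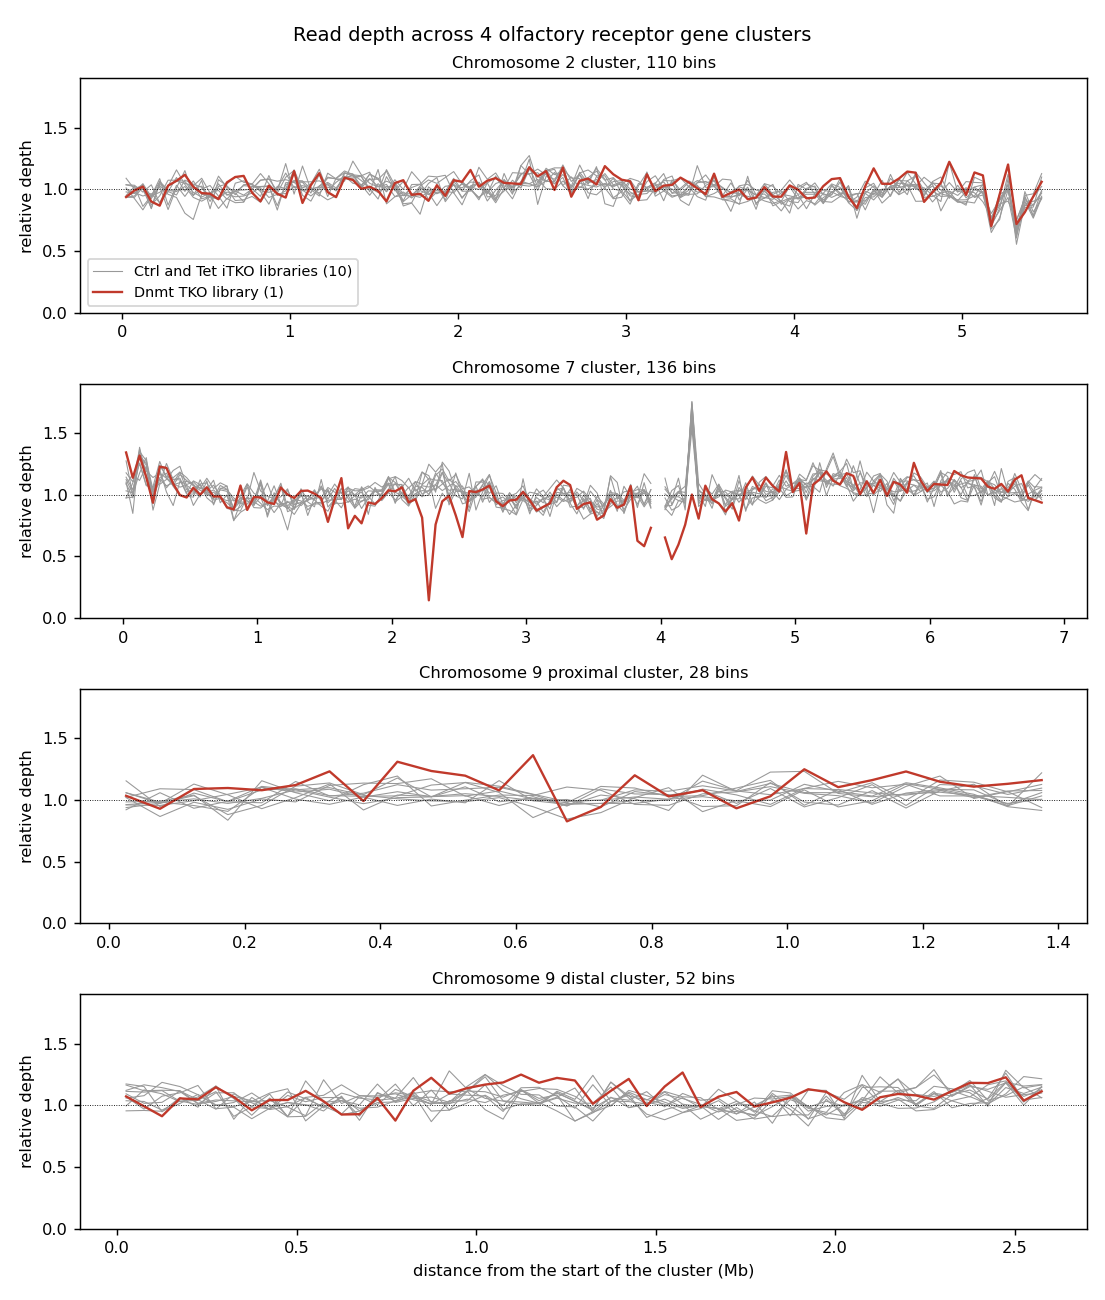
Relative depth (depth of a bin over the median autosomal bin depth) of each bin against the distance from the start of the cluster in Mb, in 4 panels for the 4 clusters, with the 10 Ctrl and Tet iTKO libraries as thin grey lines and the Dnmt TKO library as a red line. The grey lines run together near 1 with shared troughs and a shared peak of 1.54 to 1.76 on chromosome 7, and the red line leaves them there in several bins and falls to 0.145 in one.

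Long-term loss of the TET enzymes was the comparison with replicates in both groups, and it asked whether clones without them differed in copy number from Ctrl clones. In the olfactory receptor clusters no bin passed the test. Of the 326 bins, 0 passed limma's test at an adjusted p under 0.05 (Benjamini-Hochberg over 47924 autosomal bins, of which 0.125% passed), and the smallest adjusted p of limma among the 326 was 0.353. At an unadjusted p under 0.05, 25 bins passed, which is 7.67% beside 5.86% of all bins, and 27 passed with a variance trend and a robust fit. The 3 Tet iTKO and the 3 Ctrl values of a bin did not overlap in 32 of 326 bins (9.82%), beside 11.1% of all bins. The differences ran from -0.21 to 0.25, their standard deviation over the 326 bins was 0.079, and counting reads alone gives 0.074.

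Per gene, the 544 olfactory receptor genes had a median difference of 0.01 between long-term Tet iTKO and Ctrl (range -0.21 to 0.25, all on the log2 scale) and the 138 pseudogenes a median of 0.02, beside a median of 0.00011 over all autosomal bins. The 13 Trim genes lay between -0.12 and 0.12 and the 5 Usp17l genes, which encode deubiquitinating enzymes, between -0.21 and 0.05. The beta-globin genes, which sit between olfactory receptor genes on chromosome 7, lay between -0.07 and 0.08.

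The level of whole clusters against their flanks was compared next. On chromosome 2 the GC-corrected log2 difference was 0.010, -0.0082 and -0.0047 in the 3 long-term Ctrl libraries and 0.0011, 0.021 and 0.018 in the 3 Tet iTKO libraries. These groups overlapped, and the difference in means was 0.014 (exact two-sided permutation test, p = 0.2, adjusted over 4 clusters p = 0.27). On chromosome 7 the Ctrl libraries had -0.019, -0.029 and -0.031 and the Tet iTKO libraries -0.0065, -0.013 and -0.024, which overlapped at the edge (difference 0.012, exact permutation p = 0.2, adjusted p = 0.27).

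The proximal chromosome 9 cluster had 0.051, 0.065 and 0.059 in Ctrl and 0.093, 0.068 and 0.029 in Tet iTKO. The Tet iTKO values lay on both sides of the Ctrl values, with a difference in means of 0.0053 (exact permutation p = 0.8, adjusted p = 0.8). The distal cluster had 0.096, 0.12 and 0.118 in Ctrl and 0.095, 0.084 and 0.114 in Tet iTKO, again overlapping (difference -0.014, exact permutation p = 0.2, adjusted p = 0.27). With 3 libraries against 3 this exact permutation test cannot go below p = 0.1. Nothing in the labels states separate derivations for the clones of a group, so that p-values measure the spread between these libraries. With the mean over bins in place of the median, the groups did not overlap on chromosome 2 (difference 0.023), in the proximal cluster (0.029) and in the distal cluster (-0.017), each at an exact permutation p of 0.1, the smallest possible.

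**Figure D2:**
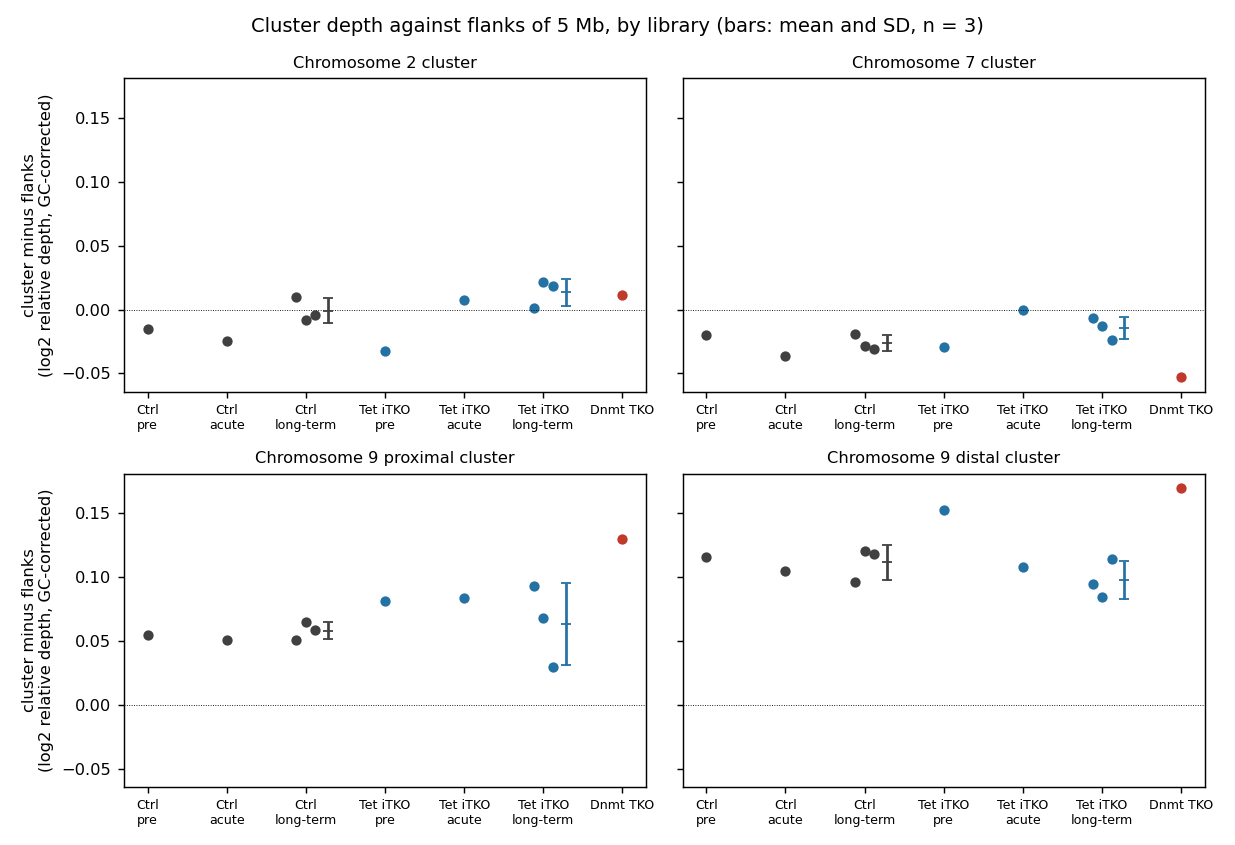
GC-corrected log2 relative depth of each cluster minus that of its 5 Mb flanks, in 4 panels, with 1 point per library in 7 groups and bars for the mean and SD of groups of 3. Long-term Ctrl and Tet iTKO points overlap in every panel, the chromosome 9 clusters lie above 0 in all 11 libraries, and Dnmt TKO has the highest value in both chromosome 9 panels and the lowest on chromosome 7.

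The stages of each genotype, and the early populations of both, were compared by size of difference. The early level of a genotype is the mean of its pre-treatment and acute libraries, and with 1 library per early group there is no test. Between long-term and early Ctrl, 0 of 326 bins differed by 0.5 or more in either direction (all autosomal bins: 0.0584%), and the differences ran from -0.20 to 0.20. Between long-term and early Tet iTKO the count was 0 (all bins: 0.0167%), with differences from -0.18 to 0.22. Early Tet iTKO against early Ctrl gave 0 bins (all bins: 0.0355%), and acute against pre-treatment gave 0 in Ctrl (all bins: 0.00835%) and 0 in Tet iTKO (all bins: 0.0230%). Counts near 0 are also what the background gives for 326 bins. At 0.3 or more, acute and pre-treatment differed in 6 bins in Ctrl (1.84%, beside 1.55% of all bins) and in 10 in Tet iTKO (3.07%, beside 2.65%). The standard deviations of the differences over the 326 bins were 0.077 to 0.13, at or under the 0.08 to 0.13 that counting reads alone gives. The comparisons share libraries, and stage and Y chromosome depth cannot be told apart.

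Dnmt TKO stood apart in the chromosome 7 cluster. Against the mean of the 3 long-term Ctrl libraries, 9 of 326 bins were lower by 0.5 or more on the log2 scale (2.76%, beside 0.864% of all autosomal bins), and all 9 lay on chromosome 7, where they made up 6.62% of 136 bins. No bin was higher by 0.5 or more (0 of 326, beside 2.38% of all bins and 0.597% of those outside chromosome 8, which held most of the higher bins). The standard deviation of the differences was 0.32 on chromosome 7, 0.11 on chromosome 2, 0.16 in the proximal and 0.12 in the distal cluster of chromosome 9, beside 0.11 from counting reads alone and 0.20 over all autosomal bins. With 1 Dnmt TKO library these are descriptions of that library. In each of the 9 bins all 10 Ctrl and Tet iTKO libraries lay above Dnmt TKO. The bins were chosen by a low value of Dnmt TKO against 3 of these 10, so that this order is partly given by the choice. Poisson intervals given below for single bins do not allow for that choice.

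As whole stretches, the clusters of Dnmt TKO moved less than these bins. Against its flanks the chromosome 7 cluster had -0.053 on the GC-corrected log2 scale, beside -0.026 ± 0.0063 (SD, n = 3) in long-term Ctrl, and the chromosome 2 cluster 0.011 beside -0.00097 ± 0.0097. The proximal chromosome 9 cluster had 0.13 beside 0.058 ± 0.0070, and the distal one 0.17 beside 0.111 ± 0.014. On this scale Dnmt TKO was the lowest of 11 libraries on chromosome 7 and the highest in both clusters of chromosome 9, by margins far under the 0.58 of 1 gained copy. Without GC correction it had -0.034 on chromosome 7, above pre-treatment Ctrl (-0.059), pre-treatment Tet iTKO (-0.064) and acute Ctrl (-0.041). It stayed the highest in the proximal (0.132) and distal (0.174) clusters of chromosome 9.

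The lowest bin held Trim12a and most of Trim5 (chr7:104273264-104323281). Relative depth was 1.036, 1.106 and 1.155 in long-term Ctrl, 1.063, 1.131 and 1.248 in long-term Tet iTKO, 1.003 and 1.029 in pre-treatment and acute Ctrl, and 1.124 and 0.9965 in pre-treatment and acute Tet iTKO. In Dnmt TKO it was 0.145, below all others, from 33 reads (exact 95% Poisson interval 22.7 to 46.3, counting error only) where the level of long-term Ctrl would give 251. The log2 difference was -2.76. The next bin on the low side held Trim6 and Trim34a (-0.36), and the one on the other side held Trim34b, Trim12c and Trim30b (-0.44). The 13 Trim genes had a median of -0.36 and a highest value of 0.04, beside a median of 0.0021 over all autosomal bins. Genes with coding sequence in the same bin share its value, so that the 13 are not separate measurements. Trim21, Trim68 and Trim3, which lie elsewhere in the cluster, had 0.04, -0.01 and -0.02. Uniqueness was 72.5% in the Trim12a bin, and 60.5% and 73% in the bins before and after it.

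A pair of runs of adjacent low bins held Gm4070 and Gvin1, no olfactory receptor gene among them. Between the runs lay a gap of the bin grid and the bin chr7:105923857-105973874, with a log2 difference of -0.40 (0.732 in Dnmt TKO). The bin after the second run (chr7:106178894-106228900) had -0.32 (0.757 in Dnmt TKO). The first run (chr7:105823821-105923856, 2 bins, mean log2 difference -0.78) had a relative depth of 0.627 and 0.583 in Dnmt TKO. In the 10 other libraries its first bin lay between 0.896 and 1.07 (median 0.993) and its second, with Gm4070, between 0.902 and 1.171 (median 1.033). The second run (chr7:106028875-106178893, 3 bins, mean -0.77) had 0.654, 0.478 and 0.596 in Dnmt TKO. The medians of the 10 other libraries there were 0.942, 0.969 and 1.019, and the third of these bins held Gvin1. Dnmt TKO lay below all 10 others in each of the 5 bins of the runs. The bins of both runs were 2% to 11% unique, and counts in them are the sum over copies that a read cannot tell apart.

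Close by, the bin chr7:106228901-106278907 had the highest mean depth of the chromosome 7 cluster and held no coding sequence of a protein-coding gene. Relative depth was 1.658, 1.753 and 1.538 in long-term Ctrl, 1.737, 1.586 and 1.656 in long-term Tet iTKO, 1.695 and 1.612 in pre-treatment and acute Ctrl, and 1.755 and 1.701 in pre-treatment and acute Tet iTKO. Dnmt TKO had 1.002 (below all others; log2 difference -0.71, 228 reads, Poisson interval 199 to 260, where the Ctrl level would give 376). The 10 libraries thus shared a level above the genome median, and Dnmt TKO had the level of the genome median.

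Olfactory receptor genes lay in 2 of the 9 low bins. The bin chr7:104523354-104573371 held Olfr651 and Olfr652, and its relative depth was 1.071, 0.967 and 1.025 in long-term Ctrl, 1.033, 0.991 and 1.028 in the Tet iTKO clones, 0.926 to 1.048 in the 4 early libraries and 0.657 in Dnmt TKO (log2 difference -0.63, 150 reads, interval 127 to 176). The bin chr7:107079014-107129020 held Olfr17, a gene long used to follow the choice of receptor in olfactory neurons, with Olfr715b and part of Olfr715. It had 0.970, 1.078 and 0.956 in long-term Ctrl, 1.114, 1.096 and 1.068 in the Tet iTKO clones, 1.018 to 1.121 in the 4 early libraries and 0.686 in Dnmt TKO (-0.54, 156 reads, interval 132 to 182). Dnmt TKO was below all others in both bins. Averaged over coding sequence, 4 of the 544 olfactory receptor genes were lower by 0.5 or more (Olfr651, Olfr652, Olfr17 and Olfr715b). This is 0.735% of the genes, close to the 0.864% of all autosomal bins. All 4 genes lie in these 2 bins of chromosome 7, where they made up 2.05% of 195 genes. Olfr715, whose coding sequence crosses into the next bin, had -0.32.

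The remaining olfactory receptor genes did not pass the threshold in Dnmt TKO, and nor did any of the 138 pseudogenes. The median log2 difference was 0.04 for the genes on chromosome 2, -0.02 on chromosome 7, 0.08 in the proximal and 0.03 in the distal cluster of chromosome 9, and the highest of all was 0.41, for Olfr843 in the proximal chromosome 9 cluster. That bin (chr9:19215312-19265320) had a relative depth of 1.364 in Dnmt TKO and of 0.858 to 1.048 in the other libraries. Among the beta-globin genes Hbb-bt shared a bin with Olfr67 and Olfr68 at -0.45, and Hbb-bs, Hbb-bh1, Hbb-bh2 and Hbb-y shared the next bin at -0.03. The Usp17l genes lay between -0.02 and 0.16.

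Below the threshold, 9 further bins of the chromosome 7 cluster were lower by 0.3 or more in Dnmt TKO, and no bin of the other clusters was. With the 9 low bins these make 18 of 326, beside 2.34% of all autosomal bins. In the other direction 4 of 326 bins (1.23%) were higher by 0.3 or more. The share was 4.43% of all autosomal bins and 1.3% of those outside chromosome 8. Olfactory receptor genes lay in 3 of the 9 further lower bins. The bin of Olfr243 and Olfr625-ps1 (chr7:103673049-103723066) had a relative depth of 0.994, 1.032 and 1.054 in long-term Ctrl, 0.996, 0.970 and 1.063 in the Tet iTKO clones and 0.728 in Dnmt TKO (log2 difference -0.48). The bin of Olfr67, Olfr68 and Hbb-bt (chr7:103773084-103823101) had 1.065, 1.050 and 1.034, then 1.042, 0.951 and 0.994, and 0.769 in the same order (-0.45). The bin of Olfr612, Olfr613, Olfr615 and Olfr616 (chr7:103522995-103573012) had 0.780 in Dnmt TKO and 0.867 to 1.059 in the 10 other libraries (-0.31). These 3 bins were 77% to 85% unique.

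**Figure D3:**
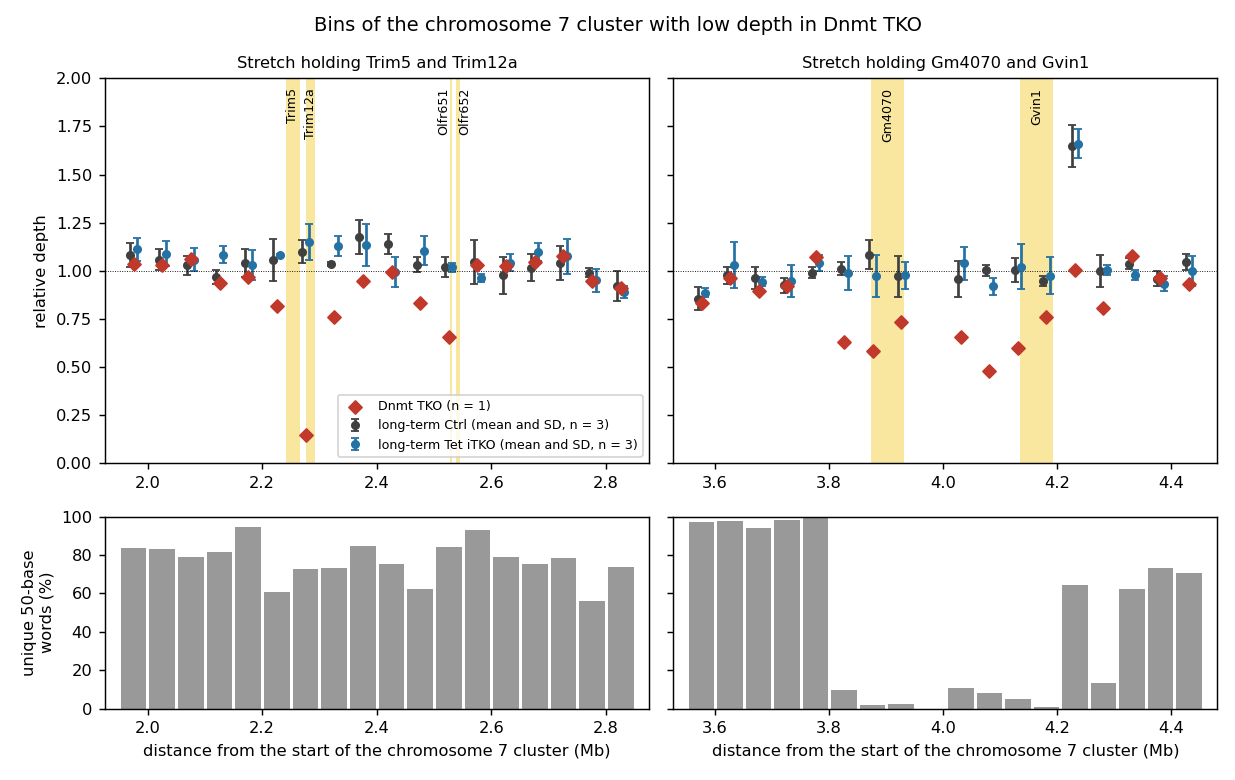
Relative depth of bins (upper panels) and the share of 50-base words found once in the genome (lower panels, in %) for a pair of stretches of the chromosome 7 cluster, against the distance from its start in Mb, with mean and SD of 3 long-term Ctrl (grey) and 3 long-term Tet iTKO libraries (blue), the Dnmt TKO library (red diamonds) and gene bodies shaded in yellow. Dnmt TKO falls to 0.145 in the bin of Trim12a and to 0.478 between Gm4070 and Gvin1, where 2% to 11% of the words are unique.

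The low bins of Dnmt TKO were set against gene content and uniqueness, as descriptions of 1 library. Bins with an olfactory receptor gene or pseudogene were low in 2 of 253 cases (0.791%, close to the 0.864% of all autosomal bins) and bins with none in 7 of 73 (9.59%). Of the 10 bins of the clusters under 20% unique, 5 were low, and of the 166 bins at 85% or more, 0 were low. Over all autosomal bins the same strata held 28.9% and 0.120% low bins, with 6.02% from 20% to 70% unique and 0.769% from 70% to 85%. In the clusters these middle strata held 2 of 30 and 2 of 120. Low bins of Dnmt TKO were more frequent in less unique sequence in the whole genome as well. The 10 other libraries, 3 of which served to choose the 9 bins of the cluster, had no such low values in them. The Trim12a bin, the lowest, was 72.5% unique, in the stratum where 0.769% of all autosomal bins were low. The part of read placement in the low values was not tested.

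**Figure D4:**
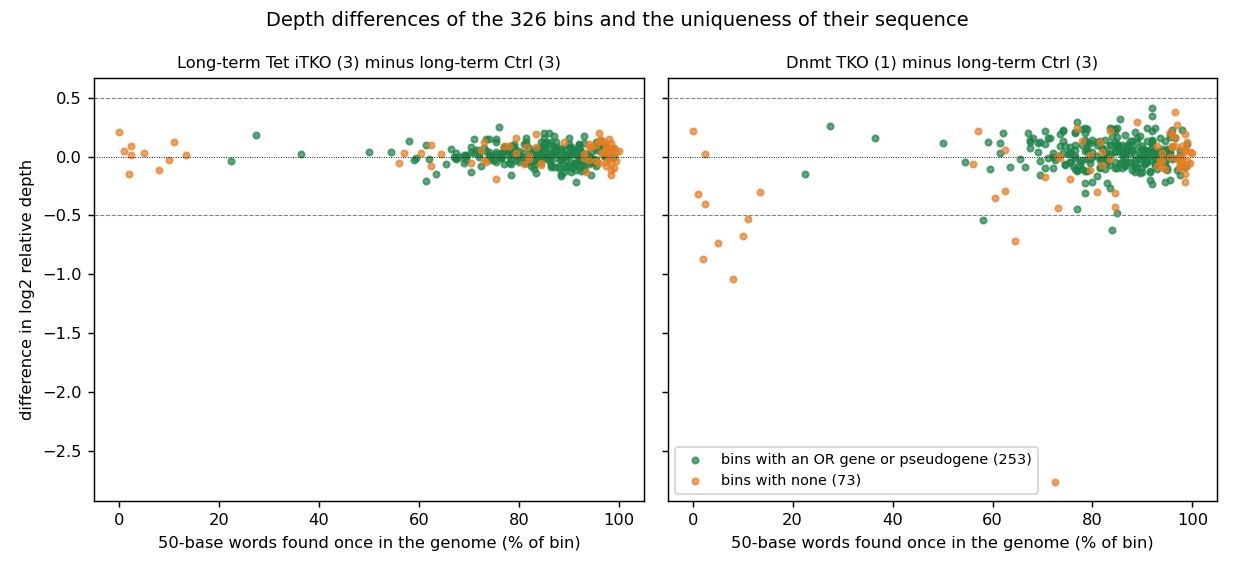
Difference in GC-corrected log2 relative depth of each of the 326 bins against the share of its 50-base words found once in the genome (%), for long-term Tet iTKO minus Ctrl (left) and Dnmt TKO minus long-term Ctrl (right), with bins that hold an olfactory receptor gene or pseudogene in green and others in orange and dashed lines at 0.5 and -0.5. No point passes the lines on the left, and on the right 9 lie below -0.5, of which 2 are green.

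Other named bins had the lowest or highest mean depth of a cluster or varied most between libraries. On chromosome 2 the lowest mean relative depths were 0.673 (chr2:90314922-90364911, 0% unique, with Gm13769) and 0.731 (chr2:90164949-90214939, 2.5% unique), near the end of the cluster and without an olfactory receptor gene. The first had 0.650, 0.656 and 0.555 in long-term Ctrl, 0.692, 0.748 and 0.717 in the Tet iTKO clones and 0.720 in Dnmt TKO, so that the long-term groups did not overlap, but its difference of 0.21 did not pass limma's adjusted test. The early libraries had 0.628 and 0.606 in pre-treatment and acute Ctrl and 0.676 and 0.753 in pre-treatment and acute Tet iTKO. All Ctrl libraries thus lay below all Tet iTKO libraries, the one before deletion included. The long-term groups did not overlap in 11.1% of all autosomal bins, and bins with all 10 libraries so ordered were not counted. On chromosome 7 the next highest bins after the one above held Nup98, a nucleoporin gene (1.29 and 1.19). The bin with the highest mean level among those with olfactory receptor genes was, in each cluster, that of Olfr982, Olfr983 and Olfr984 in the distal cluster of chromosome 9 (1.174), that of Olfr1123, Olfr1124 and Olfr1126 on chromosome 2 (1.14), that of Olfr716 and part of Olfr715 on chromosome 7 (1.126) and that of Olfr860 in the proximal cluster of chromosome 9 (1.105). Leaving out Dnmt TKO, the largest range over the 10 libraries was 0.54 on the log2 scale, in the bin of Usp17ld and Olfr595-ps1 (chr7:103222887-103272904), where 1 long-term Tet iTKO library had 0.715 and the 9 others 0.863 to 1.048. The next was 0.50, in the bin of Olfr930, where 1 long-term Tet iTKO library had 1.244 and another 0.874. On chromosome 2 the largest ranges were 0.46 in the bin of Olfr992 and Olfr993, which also holds 3 pseudogenes, and 0.45 in that of Olfr994 and Olfr995. In both bins the pre-treatment Tet iTKO library was the lowest, at 0.808 and 0.757, and the other libraries lay between 0.936 and 1.153. In the distal chromosome 9 cluster the bin of Olfr905, Olfr906 and Olfr907 ranged from 0.869 in a Tet iTKO clone to 1.224 in Dnmt TKO, and that of Olfr926, which also holds 4 pseudogenes, from 0.873 in acute Ctrl to 1.202 in Dnmt TKO. In the proximal cluster the bin of Olfr835 ranged from 0.957 to 1.311, again with Dnmt TKO as the highest. The Spearman correlation of mean relative depth with the number of olfactory receptor genes and pseudogenes was 0.35 over the 110 bins of chromosome 2, -0.087 over the 136 of chromosome 7, 0.24 over the 28 of the proximal and -0.03 over the 52 of the distal cluster of chromosome 9. With GC content it was -0.3, 0.082, -0.32 and 0.064 in the same order, and with uniqueness 0.021, 0.25, -0.18 and 0.13. The values over all 326 bins were 0.022, -0.038 and 0.15, and differences in these coefficients between clusters were not tested. These are descriptions over bins that share libraries and neighbours.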

How the data were processed

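Mapping of trimmed reads to mm10 (BWA-mem) and duplicate removal (Picard) had been done by the authors. The deposited files hold, per bin, the mean coverage (depth), a signal not scaled to the library or corrected for GC content or mappability, and the deposited log2 column is the log2 of that depth. Depth was divided by the median autosomal bin depth, put on a log2 scale with 0.02 added, and the trend with GC content was removed in each library by lowess (span 0.3, statsmodels 0.14.6). Bins under a mean relative depth of 0.25 would have been left out, and 0 were. Long-term groups were compared with limma 3.58.1, a step first tested on data simulated with counting error only. There it called 100% of bins changed by -1 or 0.58 on the log2 scale, 62% of those changed by -0.3 and 50% of those changed by 0.3. Single-bin changes of 0.3 or less can thus be missed. Read numbers are bases over 50, since 95.4% of 3432 small bin values were multiples of 50 and 49.1% odd multiples. The methods state a longer minimum for mapped reads, and with longer reads the read numbers would be lower and the intervals wider. Genes came from GENCODE M21. Uniqueness used 50-base words every 250 bases of the primary GRCm38 assembly. Named bins were those in runs of adjacent low or high bins, those with the 3 largest ranges, the 3 lowest and the 3 highest means per cluster. The other low bins of Dnmt TKO, the bins of Usp17ld and of Olfr716 and the sequence pairs were chosen after their values were seen. Clusters, gene lists and tests were chosen with earlier results of these data known.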

Additional observations from a re-analysis of the deposited data

How the results depend on the processing

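In the long-term comparison 0 bins of the clusters passed limma's adjusted test under every alternative, including no GC correction, a pseudocount of 0.1, windows of 5 bins and each library left out (0 to 0). A fit with all 11 libraries gave the same values, since groups of 1 library add nothing to the estimated spread, and a fit without the filter was the same fit, since 0 bins were filtered. With the replicate number as a block 0 bins passed as well, and 27 at an unadjusted p under 0.05, and same-numbered libraries did not deviate together (correlations 0.0031, 0.000201 and 0.00267). The difference of a cluster against its flanks with the replicate block was 0.0144, 0.0119, 0.00528 and -0.0138 (chromosome 2, 7, 9 proximal and 9 distal; exact sign-flip permutation p of 0.5, 0.25, 0.75 and 0.25, where 3 pairs cannot go below 0.25). With flanks of 2 Mb it turned to -0.00913 on chromosome 2 and -0.0197 in the proximal chromosome 9 cluster, and without GC correction to -0.00221 on chromosome 7 and -0.0075 in the proximal cluster. With single libraries left out it ran from 0.0105 to 0.0206, from 0.00795 to 0.0167, from -0.00959 to 0.0223 and from -0.022 to -0.00706 in the same order, and it turned in the proximal cluster without long-term Tet iTKO replicate 1 (-0.00959). The mean over bins gave 0.0228, 0.00985, 0.0288 and -0.0169 (exact permutation p of 0.1, 0.3, 0.1 and 0.1). No p of these exact permutation tests could fall under 0.05 with these numbers of libraries, and the cause of the turns was not tested.

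The low bins of Dnmt TKO numbered 18 at a threshold of 0.3, 9 at 0.5 and 3 at 0.8, and 8 to 9 with a long-term Ctrl library left out. At 0.3, 4 of 326 bins were higher in Dnmt TKO (all autosomal bins: 4.43%, those outside chromosome 8: 1.3%). At the same threshold 6 bins in Ctrl (1.84%, all bins 1.55%) and 10 in Tet iTKO (3.07%, all bins 2.65%) differed between acute and pre-treatment. With a pseudocount of 0.1 the bins from 106028875 and 107079014 on chromosome 7 had -0.49 and -0.49. The mean over bins in place of the median gave a relative depth of 0.998 on chromosome 2 (median 1.006) and of 1.027 on chromosome 7 (1.021). Depth limits single bins: counting reads gives an SD of 0.12 to 0.13 between single libraries, so that a change of copy number in a small part of the cells was not detectable at this depth.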
